A study of Mus musculus with 3 samples.

Results

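Chromatin modifiers and remodelers are the enzymes and motor proteins that write, erase and read marks on histones and DNA, or that slide and evict nucleosomes. In CD8+ T cells they are known for setting which loci of the effector, memory and naive programmes are open to transcription factors. The genes described here were chosen by a rule on symbols alone. That rule uses no measured value, but it was set with earlier results of these data known. The genes carry the names Kdm, Kmt, Hdac, Setd, Ezh1, Ezh2, Dnmt, Tet1 to Tet3, Brd, Smarc, Chd or Sirt. Of the 10191 genes with a value in the deposited table, 81 met that rule, in 7 roles: 16 histone demethylases, 18 histone methyltransferases, 16 deacetylases, 5 genes of DNA methylation and its oxidation, 6 bromodomain proteins, 11 SWI/SNF and related proteins and 9 CHD remodelers.

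Expression was measured with 1 Affymetrix array for each of 3 populations of CD8+ T cells: CXCR3+ innate, CXCR3- innate and naive. All 3 came from spleen and lymph nodes of unchallenged C57BL/6 mice with a CXCR3-GFP reporter, in which green fluorescence reports the chemokine receptor CXCR3; the labels also call the line CIBER. The animals were housed free of pathogens, and cells were stained for surface markers, CD44 and CD8 among them, and then sorted. RNA came from about 3 to 5 mice, and the labels give no ages and no surface phenotype that defines innate. Values are log2 RMA expression values, so a difference of 1 is 2-fold. Values of the arrays are always given in the order CXCR3+ innate, CXCR3- innate, naive.

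Each population has a single array, and the labels do not say whether RNA of several mice was pooled on it. No spread between replicates, standard error or test therefore exists for any value below, and higher and lower refer to these 3 arrays. The array medians over genes were 7.63, 7.63 and 7.65, and the 75th percentiles were 8.18, 8.15 and 8.23, highest on the naive array. Cd8a read 10.14, 9.77 and 10.43, and Cd8b1 read 11.31, 11.29 and 11.54, so the defining genes of the labelled cell type were present on every array. Cd44 read 8.30, 7.88 and 7.24, and Cxcr3 read 7.97, 7.82 and 7.57. In bulk samples, fewer cells of a type and less RNA per cell cannot be told apart. Many genes had the same value on several arrays: 34.6% of all genes and 19 of the 81 chromatin genes were equal on all 3. An equal value therefore does not show that expression was the same.

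None of the 81 genes differed 2-fold in any comparison. The rule of size asked that the difference reach the stated fold and that the higher value lie at or above its array's median over all genes, a level that 58 members reached on at least 1 array and 23 on none. At 2-fold, 0.137% of all genes were higher and 0.0981% lower in CXCR3+ innate than in naive cells. The shares were 0.0196% and 0.226% for CXCR3- innate minus naive, and 0.147% and 0.00981% for CXCR3+ innate minus CXCR3- innate. At 1.5-fold, 2 members were lower in CXCR3+ innate than in naive cells, Kmt2a and Hdac1, against a background of 0.697% of all genes. Setd6 was the 1 member past 1.5-fold in CXCR3- innate minus naive, at a background of 1.6%. No member was 1.5-fold higher in any comparison, where the backgrounds were 0.5%, 0.0981% and 1%, and none was 1.5-fold lower between the innate populations, where it was 0.0785%. All 3 genes lay close to the threshold. Kmt2a at -0.62, Hdac1 at -0.60 and Setd6 at -0.59 were just inside, and Kdm6a at -0.55 and Tet3 at -0.52, both in CXCR3+ innate minus naive, were just outside. After quantile normalization or cyclic loess none of the 3 reached 1.5-fold.

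Smaller differences leaned to one side. In CXCR3+ innate minus naive, 46 of 81 members had a difference below 0, 29 were equal and 6 were above 0. Over all genes 34.2% were below 0, 45% equal and 20.7% above 0. In CXCR3- innate minus naive, 54 members were below 0, 23 equal and 4 above 0, beside 36.3%, 42.1% and 21.6% of all genes. Both comparisons share the naive array, so they are not independent counts. Between the innate populations 27 members were above 0, 18 below and 36 equal, near the 28.7%, 22.3% and 49% of all genes. The median difference of the members was -0.04, -0.05 and 0.00 in the same order, and that of all genes was 0.00 in each comparison. Genes with a mean over the 3 arrays at or above the median of such means leaned the same way. Among those 5096 genes, 47.9% were below 0 in CXCR3+ innate minus naive, and 34 of the 55 members there were. The share of all genes below naive was thus larger among genes with a higher mean value. For CXCR3- innate minus naive 52.3% of those genes were below 0 and 30.2% equal, and 42 of 55 members were below 0 and 11 equal. Between the innate populations 37.6% were above 0 and 38.8% equal, and 21 of 55 members were above 0 and 19 equal. In the same order of comparisons, the median difference of those 5096 genes was 0.00, -0.016 and 0.00, beside -0.098, -0.093 and 0.00 for the 55 members. The mean difference was -0.058, -0.103 and 0.045 for those genes, beside -0.135, -0.124 and -0.011 for the 55 members. Quantile normalization gave 60.5% of members and 45.3% of all genes below 0 in CXCR3+ innate minus naive, and 58% and 41.3% in CXCR3- innate minus naive. Cyclic loess gave 65.4% and 51.7% in the former, and 69.1% and 54.8% in the latter. Between the innate populations, the share below 0 was 71.6% of members and 65.7% of all genes after quantile normalization, and 70.4% and 73.6% after centring each array on its median. Cyclic loess gave 49.4% and 42.7% there. Quantile normalization brought both medians of the members against naive to -0.01.

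**Figure D1:**
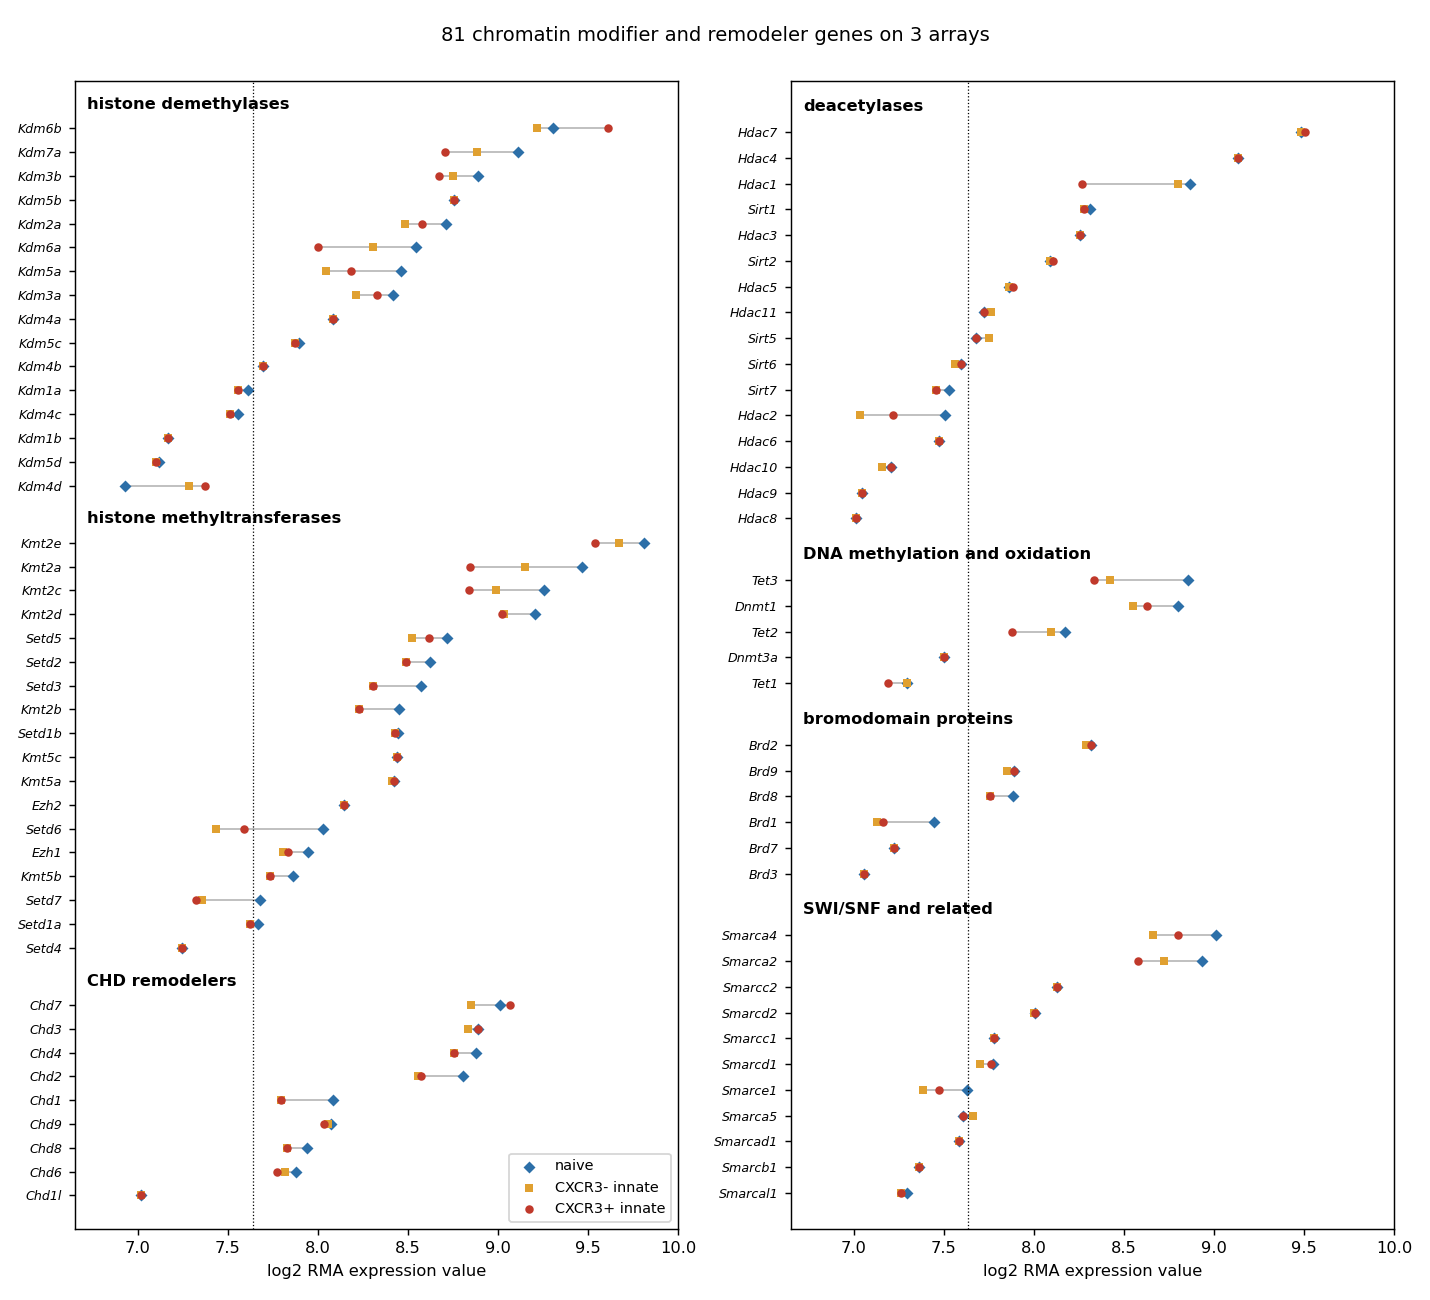
Log2 RMA expression value (x axis) of each of the 81 genes (y axis), grouped by role, with diamonds for naive, squares for CXCR3- innate and circles for CXCR3+ innate cells, 1 array each. Symbols overlap where values are equal, the dotted line is the mean of the 3 array medians over genes, and the naive diamond lies farthest right for most of the genes whose values differ. Chd7, Hdac5, Hdac7, Hdac11, Kdm4d, Kdm6b, Sirt2, Sirt5 and Smarca5 have their highest value on an innate array.

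Histone methyltransferases lay at or below naive cells throughout. Such enzymes add methyl groups to histone lysines and, in some cases, to other proteins. The role was set by symbol alone, and it also holds Setd3, described below as an actin histidine methyltransferase. No member of the 18 had a value above naive in either innate population, where 20.7% and 21.6% of all genes did. In CXCR3+ innate cells 14 were below naive and 4 equal, with a median of -0.13, and in CXCR3- innate cells 15 were below and 3 equal, with a median of -0.14. Counts of this and the other roles stand beside 34.2% and 36.3% of all genes below naive. Among genes with a mean at or above the median of such means, these shares were 47.9% and 52.3%. The mean levels of the 18 had a median of 8.41, above the array medians. Both median differences of the role stayed below 0 under the 4 other scalings tried, but after quantile normalization they were -0.08 and -0.05, and some of the equal genes took small values above 0.

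The Kmt2 genes encode the catalytic subunits of the COMPASS-type complexes, which methylate histones at active promoters and enhancers, and the more distant relative Kmt2e. Kmt2a, also known as the MLL gene, read 8.84, 9.15 and 9.46. The naive array was highest and the CXCR3+ innate array lowest, with 1.54-fold between them and 1.24-fold between CXCR3- innate and naive. Kmt2c, an enhancer methyltransferase, read 8.84, 8.99 and 9.26, a 1.34-fold difference between CXCR3+ innate and naive cells. Kmt2e read 9.54, 9.67 and 9.81, in the same order of arrays. Kmt2d, the paralogue of Kmt2c, read 9.02, 9.03 and 9.20, so that both innate arrays stood nearly together below naive. Kmt2b read 8.23 on both innate arrays and 8.45 in naive cells. All 5 Kmt2 differences from naive were below 0 in both innate populations, between -0.62 and -0.18 for CXCR3+ innate and between -0.31 and -0.14 for CXCR3- innate cells. The direction held under each scaling except for Kmt2e in CXCR3- innate minus naive, at 0.06 after quantile normalization.

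Among the Setd genes, Setd6 encodes a methyltransferase known to modify the NF-kappaB subunit RelA. It read 7.59, 7.44 and 8.02, so here the CXCR3- innate array was the lowest, at 1.5-fold below naive. Setd7, a lysine methyltransferase with histone and non-histone substrates, read 7.32, 7.36 and 7.68. Setd3, known as an actin histidine methyltransferase, read 8.30 on both innate arrays and 8.57 in naive cells. Setd5 differed from naive by -0.10 in CXCR3+ innate and -0.19 in CXCR3- innate cells, and Setd2, which methylates histones along transcribed gene bodies, by -0.13 in both. Setd1a and Setd1b, further catalytic subunits of COMPASS, differed by -0.05 and -0.02 in both, and Setd4 was equal on all arrays at 7.24.

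The Polycomb methyltransferases lay the repressive mark that the Kdm6 enzymes remove. Ezh2 was equal at 8.15 on all 3 arrays. Ezh1 read 7.83, 7.81 and 7.94. Of the Kmt5 genes, which methylate histone H4, Kmt5b differed by -0.13 from naive in both innate populations, Kmt5c was equal at 8.44, and Kmt5a was within 0.01 on all arrays.

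Promoter sequences from RefSeq (GRCm38.p6) run from 250 bases before to 50 after a gene start. They are shown for the genes lowest in CXCR3+ innate minus naive that had a promoter listed. In CXCR3- innate minus naive the order differed, with Hdac2 at -0.47, Kdm5a at -0.42 and Smarca4 at -0.35 below Kmt2a at -0.31. The genes were picked by their values here, and a link between their sequences and those values was not tested. The table held promoters of 64 of the 81 members, and Hdac1, Kdm6b, Kmt2b and Kmt2e have none listed. Capitals mark matches, on either strand, to the GC box GGGCGG, the ETS-type motif CCGGAAG or the E box CACGTG.
Kmt2a, chr9:44881240-44881539, - strand: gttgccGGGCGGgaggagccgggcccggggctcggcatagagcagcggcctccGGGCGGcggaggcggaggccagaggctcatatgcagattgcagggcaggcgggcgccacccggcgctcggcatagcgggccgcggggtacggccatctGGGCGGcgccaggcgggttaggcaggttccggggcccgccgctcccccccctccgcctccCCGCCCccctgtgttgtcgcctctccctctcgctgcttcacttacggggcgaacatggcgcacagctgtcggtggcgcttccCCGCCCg
Kmt2c, chr5:25498734-25499033, - strand: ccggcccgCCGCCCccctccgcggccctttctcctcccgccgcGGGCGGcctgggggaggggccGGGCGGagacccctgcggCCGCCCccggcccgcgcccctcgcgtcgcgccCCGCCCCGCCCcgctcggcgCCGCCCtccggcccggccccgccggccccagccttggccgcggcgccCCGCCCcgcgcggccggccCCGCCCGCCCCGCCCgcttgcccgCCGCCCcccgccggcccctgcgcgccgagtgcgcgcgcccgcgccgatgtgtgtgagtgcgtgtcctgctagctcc
Setd6, chr8:95715663-95715962, + strand: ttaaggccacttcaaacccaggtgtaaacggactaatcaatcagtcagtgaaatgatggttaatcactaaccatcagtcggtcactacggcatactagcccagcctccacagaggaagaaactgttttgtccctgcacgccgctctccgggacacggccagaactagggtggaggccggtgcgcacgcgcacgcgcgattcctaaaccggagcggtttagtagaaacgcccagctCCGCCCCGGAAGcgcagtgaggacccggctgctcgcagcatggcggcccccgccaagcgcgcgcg
Tet3, chr6:83441629-83441928, - strand: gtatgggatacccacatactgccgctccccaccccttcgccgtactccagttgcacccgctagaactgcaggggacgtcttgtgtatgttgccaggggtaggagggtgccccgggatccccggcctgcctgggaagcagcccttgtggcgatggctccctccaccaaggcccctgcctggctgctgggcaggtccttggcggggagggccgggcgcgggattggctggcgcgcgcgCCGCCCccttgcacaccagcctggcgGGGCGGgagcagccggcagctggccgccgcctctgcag
Kdm6a, chrX:18162325-18162624, + strand: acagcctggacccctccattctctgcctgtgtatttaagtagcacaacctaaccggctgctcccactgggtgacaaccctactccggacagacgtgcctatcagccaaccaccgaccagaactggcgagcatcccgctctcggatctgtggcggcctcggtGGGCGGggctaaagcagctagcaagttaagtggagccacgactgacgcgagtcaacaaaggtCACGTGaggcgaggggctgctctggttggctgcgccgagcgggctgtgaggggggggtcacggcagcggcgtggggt
The Kmt2a promoter held 5 GC boxes and 36 CpG dinucleotides, and that of Kmt2c held 12 GC boxes, some overlapping each other, and 56 CpG dinucleotides. The Setd6 promoter had 1 GC box that shares a base with 1 ETS-type motif, Tet3 had 2 GC boxes, and Kdm6a had 1 GC box and 1 E box. Over the 86 promoters listed for members, 68.6% held a GC box, against 54.6% of the 9840 promoters of genes in the table and 35.7% of all 32851 promoters of that length. The median number of CpG dinucleotides was 24, 18 and 7 in the same order. An ETS-type motif was found in 15.1%, 14.7% and 8.86%, and an E box in 5.81%, 9.31% and 7.15%. The NRF1-type motif GCATGCGC was found in 10.5%, 4.3% and 2.71%. Matches of the T-box motif GGTGTGA were found in 0 of the members' 86 promoters, beside 3.64% for genes in the table and 3.98% of all promoters. The CRE motif TGACGTCA was also found in 0 of the 86, beside 2.55% and 1.79%. These counts describe letters in a window and not binding.

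Histone demethylases, which erase those methyl marks, include Kdm4d and Kdm6b, the members farthest above naive in CXCR3+ innate cells. Of 16 genes, 10 were below naive, 4 equal and 2 above in CXCR3+ innate cells, with a median of -0.03. In CXCR3- innate cells 11 were below, 4 equal and 1, Kdm4d, above, with a median of -0.05. Under each scaling both medians stayed below 0, and after quantile normalization that of CXCR3- innate cells was -0.01.

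Kdm6a and Kdm6b both encode enzymes that remove the Polycomb mark, and in CXCR3+ innate cells they lay on opposite sides of naive. Kdm6a, also known as UTX, read 8.0, 8.31 and 8.55, which put CXCR3+ innate cells 1.46-fold below naive. Kdm6b, also known as JMJD3, read 9.61, 9.21 and 9.31, so the CXCR3+ innate array was the highest, at 1.24-fold over naive and 1.32-fold over CXCR3- innate. The CXCR3- innate value of Kdm6b lay 0.09 below naive, and lay 0.06 above it after quantile normalization. Between the innate populations the differences were 0.40 for Kdm6b and -0.31 for Kdm6a.

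Kdm7a, a demethylase of repressive marks, followed the order of Kdm6a, at 8.70, 8.88 and 9.11. Kdm5a, which removes the promoter mark written by COMPASS complexes, read 8.18, 8.04 and 8.46, and its lowest array was CXCR3- innate. Kdm5b was equal at 8.76 on all arrays, Kdm5c differed by -0.02 from naive in both innate populations, and the Y-linked Kdm5d also differed by -0.02. Kdm2a, Kdm3a and Kdm3b lay between -0.22 and -0.09 in CXCR3+ innate minus naive, and between -0.23 and -0.14 in CXCR3- innate minus naive. Kdm1a, encoding LSD1, read 7.55 on both innate arrays and 7.61 in naive cells, and Kdm1b was equal at 7.17. In the Kdm4 family, Kdm4a and Kdm4b were equal on all arrays and Kdm4c differed by -0.04. Kdm4d read 7.37, 7.28 and 6.93 and was above naive by 0.44 in CXCR3+ innate and 0.35 in CXCR3- innate cells. All 3 values of Kdm4d were below the array medians. Its naive value also lay below 7.00002, a level that every probe set with values here reached on some array. Kdm4d therefore has values here only through its innate arrays, a cut that favours a place above naive. RefSeq lists a pseudogene copy, Kdm4dl, whose RNA the probes could share, which was not tested.

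**Figure D2:**
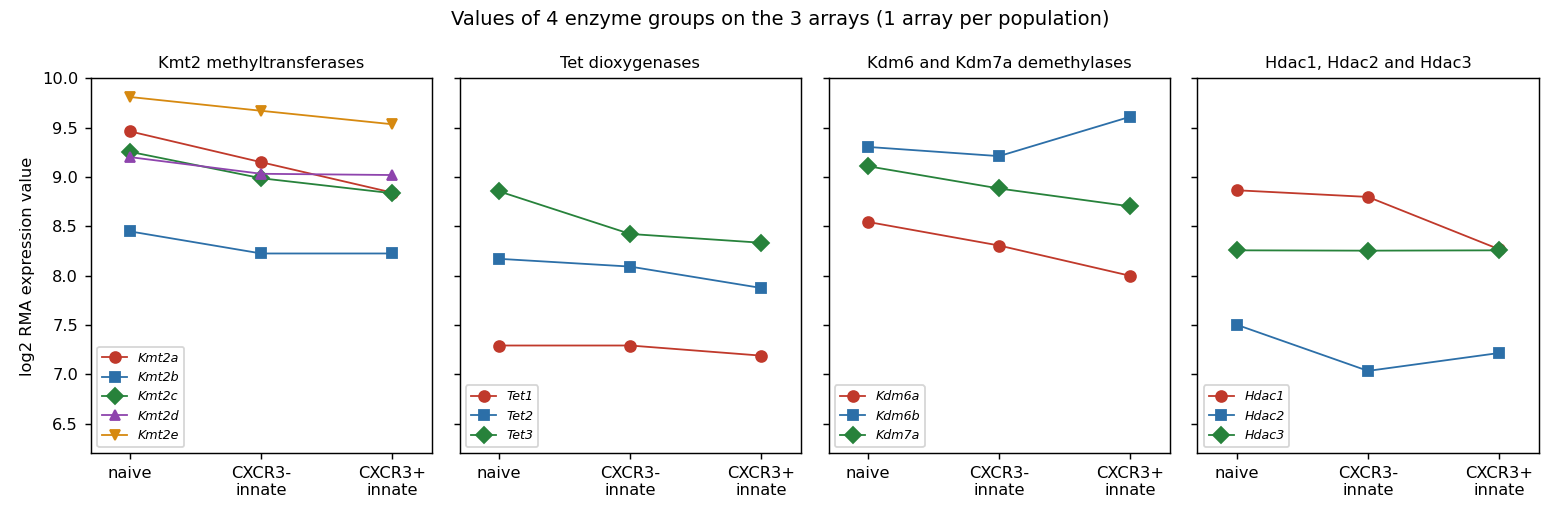
Log2 RMA expression value (y axis) of Kmt2, Tet, Kdm6 and Kdm7a, and class I Hdac genes on the naive, CXCR3- innate and CXCR3+ innate arrays (x axis, no order in time), 1 point per array with lines joining the points of a gene. Kmt2a, Kmt2c, Kmt2e, Kdm6a and Kdm7a step down from naive to CXCR3+ innate, Kdm6b is highest in CXCR3+ innate at 9.61, and Hdac1 reads 8.27 in CXCR3+ innate, below 8.80 and 8.87 on the others.

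Deacetylases remove acetyl groups from histones and other proteins, and the Sirt enzymes do so with NAD as cofactor. The role as a whole lay near 0: in CXCR3+ innate minus naive 4 of 16 were below 0, 9 equal and 3 above, and in CXCR3- innate minus naive 7 were below, 7 equal and 2 above. The median was 0.00 in both.

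Hdac1 and Hdac2 encode the paired deacetylases of the NuRD, Sin3 and CoREST complexes. Hdac1 read 8.27, 8.80 and 8.87. The CXCR3+ innate array stood apart, 1.51-fold below naive and 1.44-fold below CXCR3- innate, with a difference of -0.53 between the innate populations. That comparison crossed 1.5-fold after quantile normalization. Hdac2 read 7.22, 7.04 and 7.5, and here CXCR3- innate was the lowest, although no value reached the array median. RefSeq lists a pseudogene, Hdac1-ps, and whether its sequence takes part in the Hdac1 value was not tested. Hdac3, the enzyme of the NCoR complex, read 8.26, 8.25 and 8.26.

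The class IIa enzymes Hdac4, Hdac5 and Hdac7 are known as signal-dependent partners of MEF2 factors, and Hdac7 is abundant in T lineage cells. Hdac7 read 9.50, 9.48 and 9.48, Hdac4 was equal at 9.13, and Hdac5 read 7.88, 7.86 and 7.86. Hdac6, Hdac8 and Hdac9 were equal on all 3 arrays, and Hdac10 and Hdac11 differed by at most 0.05 in any comparison. The 5 measured sirtuins stayed between -0.08 and 0.07 in every comparison. Sirt1 read 8.28 on both innate arrays and 8.31 in naive cells, and Sirt5 was higher in CXCR3- innate cells, at 7.75 against 7.68 on the other arrays.

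DNA methylation is written by Dnmt enzymes and oxidised by Tet enzymes on the way to its removal. Tet3 read 8.33, 8.42 and 8.86, which is 1.44-fold and 1.35-fold below naive. Tet2, whose loss is known to favour memory-type CD8+ T cells, read 7.88, 8.09 and 8.17. Here the CXCR3+ innate array lay below both others. Tet1 read 7.19, 7.29 and 7.29, below the array medians. Dnmt1, the maintenance methyltransferase, read 8.63, 8.55 and 8.80, and its innate values were 1.12-fold and 1.19-fold below naive. Dnmt3a, the de novo enzyme, was equal at 7.5 on all 3 arrays, below their medians. Dnmt1 is also known to follow cell division. Of 33 listed cell cycle genes, 12 had a value, 0 reached 1.5-fold in any comparison, and their median difference was 0.00 in each. Mcm4 read 8.14, 8.09 and 8.32 and Pcna read 9.15, 9.02 and 9.26, both highest in naive cells as Dnmt1 was. Aurkb, at 7.10, 6.90 and 6.61, was lowest in naive cells, with all its values below the array medians. Every probe set with values here reached 7.00002 on some array, and Aurkb did so only in CXCR3+ innate cells. That cut favours lower values on its other arrays, so its order carries no reading of cell division. The part of cycling cells in the Dnmt1 values was not tested.

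Bromodomain proteins read acetylated histones. Brd1, a scaffold of an acetyltransferase complex, read 7.16, 7.13 and 7.44, all below the array medians. Brd8, a subunit of the TIP60 complex, read 7.75 on both innate arrays and 7.88 in naive cells. Brd2, of the BET family, read 8.32, 8.29 and 8.32. The SWI/SNF subunit Brd9 read 7.89, 7.85 and 7.89, and Brd3 and Brd7 were equal on all arrays.

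Among the 11 Smarc genes, the largest difference from naive was that of Smarca2 in CXCR3+ innate and that of Smarca4 in CXCR3- innate cells. The subunit Smarce1, at -0.25 in CXCR3- innate minus naive, lay farther below naive there than Smarca2, at -0.21. Smarca4 and Smarca2 encode the alternative motors BRG1 and BRM of SWI/SNF complexes. Smarca4 read 8.80, 8.66 and 9.01, and Smarca2 read 8.58, 8.72 and 8.93. Naive was highest for both, but the lowest array was CXCR3- innate for Smarca4, 1.27-fold below naive, and CXCR3+ innate for Smarca2, 1.28-fold below. The core subunits Smarcb1, Smarcc1 and Smarcc2 were equal on all arrays, as was the remodeler Smarcad1. Smarcd2 differed by at most 0.01, and Smarce1 read 7.47, 7.38 and 7.63. Smarcd1 was the 1 member with more than 1 probe set. One of them was equal on all arrays at 7.25, and the other read 8.28, 8.15 and 8.30. Smarca5, the ISWI motor, read 7.61, 7.66 and 7.61, and RefSeq lists a transcribed pseudogene of it. Smarcal1 differed by -0.04 from naive in both innate populations. The median over the 11 genes was -0.00063 in CXCR3+ innate minus naive and -0.01 in CXCR3- innate minus naive, and both took a value above 0 after quantile normalization and after centring on the median.

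CHD remodelers slide nucleosomes, and Chd3 and Chd4 are the motors of NuRD. In CXCR3- innate minus naive 8 of 9 were below 0 and 1 was equal, with a median of -0.12. For CXCR3+ innate cells 6 were below 0, 2 equal and 1 above, with a median of -0.10. Chd1, which binds the promoter mark of active genes, read 7.79 on both innate arrays and 8.08 in naive cells. Chd2 read 8.57, 8.55 and 8.80. Chd4 read 8.76 on both innate arrays and 8.88 in naive cells, whereas Chd3 read 8.89, 8.83 and 8.89. After quantile normalization Chd4, Chd9 and Chd3 lay above naive in CXCR3- innate cells, by 0.01, 0.04 and 0.09. The medians of the role were then -0.02 in CXCR3- innate and -0.05 in CXCR3+ innate cells. Chd7 read 9.06, 8.85 and 9.01, so that it was highest in CXCR3+ innate and lowest in CXCR3- innate cells. Chd8 differed by -0.12 from naive in both innate populations, Chd6 by -0.10 and -0.06, and Chd9 by -0.04 and -0.02, and Chd1l was equal at 7.02.

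**Figure D3:**
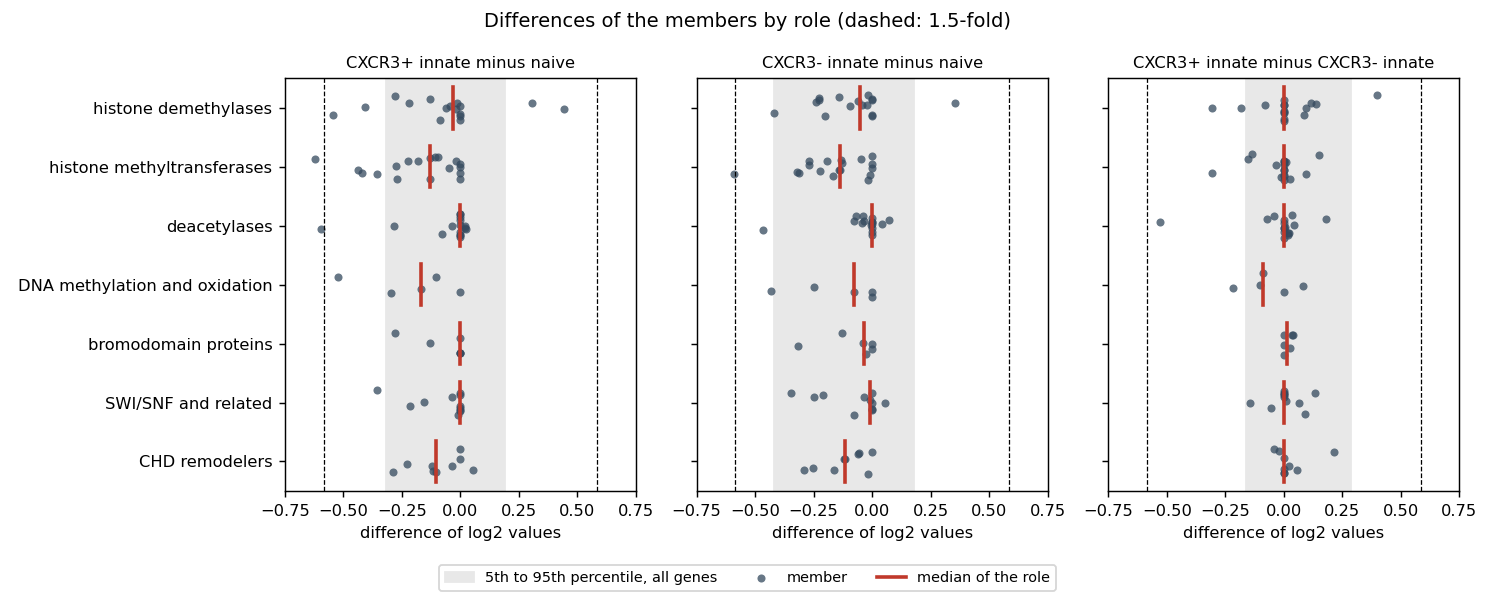
Difference of log2 values (x axis) of each member by role (y axis) in the 3 comparisons, with points for genes, a red bar for the median of the role, a grey band for the 5th to 95th percentile of all 10191 genes and dashed lines at 1.5-fold. Histone methyltransferases have no point above 0 in either comparison with naive cells, where 20.7% (CXCR3+ innate) and 21.6% (CXCR3- innate) of all genes lay above 0. Hdac1 is the lowest point of the comparison between the innate populations, at -0.53.

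A fold of 1.2 was also counted, a threshold chosen after the values were seen. In CXCR3+ innate minus naive 14 members were lower, against 6.46% of all genes, and 1 was higher, Kdm6b, against 2.06%. The 14 were 6 methyltransferases (Kmt2a, Kmt2c, Kmt2e, Setd3, Setd6 and Setd7), 3 demethylases (Kdm5a, Kdm6a and Kdm7a), Tet2, Tet3, Hdac1, Smarca2 and Chd1. In CXCR3- innate minus naive 9 members were lower, which is 11.1% of 81, against 10.4% of all genes. There 0 were higher, against 1.34%. Among the 5096 genes with a mean at or above the median of such means, 600 were lower in CXCR3+ innate minus naive, beside 13 of the 55 members. In CXCR3- innate minus naive 980 of those genes were lower, beside 8 of the 55 members, a smaller share of the members than of those genes. In CXCR3+ innate minus CXCR3- innate 3 members were lower, Hdac1, Kdm6a and Kmt2a, against 1.32%, and 1 was higher, Kdm6b, against 5.06%. After quantile normalization the lower counts against naive were 8 and 4. No share of all genes is given here for that scaling, so these counts cannot be set beside a background.

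**Figure D4:**
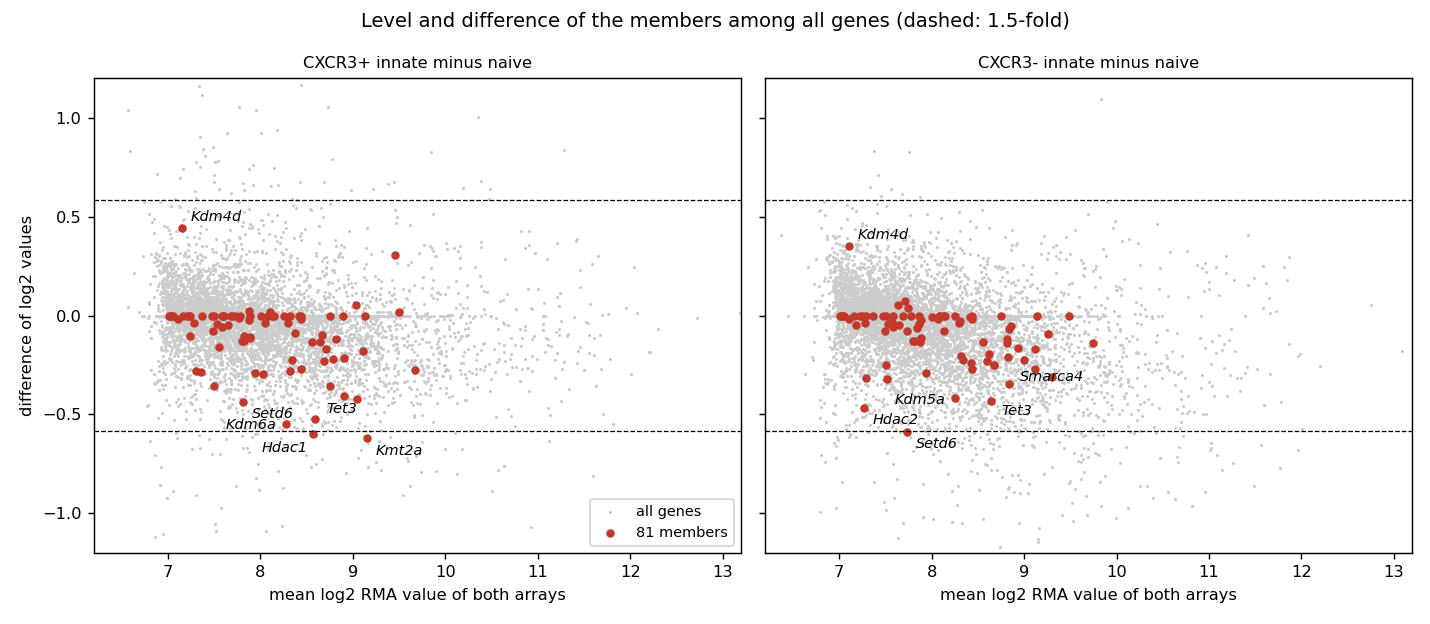
Difference of log2 values from naive (y axis) against the mean log2 RMA value of both arrays (x axis) for all genes (grey) and the 81 members (red), for CXCR3+ innate on the left and CXCR3- innate on the right. Dashed lines mark 1.5-fold, which Kmt2a and Hdac1 pass on the left and Setd6 on the right, and genes beyond 1.2 in either direction on the y axis are not drawn.

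Partners of these enzymes with other symbols were taken from 10 lists of chromatin genes, which held 153 measured genes of 225 listed. In CXCR3+ innate minus naive 98 of the 153 were below 0, 51 equal and 4 above, with a median of -0.07. For CXCR3- innate cells 104 were below, 48 equal and 1 above, with a median of -0.09. Over all genes 34.2% and 36.3% were below 0 in these comparisons. At 1.5-fold, 2 of them were lower in each of these comparisons, beside the 0.697% and 1.6% of all genes given above, and 0 were higher. Those were Mbd2, the methyl-DNA binding subunit of NuRD, and Rybp, a subunit of Polycomb complexes. Mbd2 read 8.69, 8.81 and 9.42, which is 1.65-fold and 1.52-fold below naive. Rybp read 8.17, 8.16 and 8.76, at 1.5-fold and 1.51-fold below naive.

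Histone acetyltransferases and their subunits, the writers opposed to the deacetylases, had 13 of 18 measured members below naive and 5 equal in CXCR3+ innate cells, with a median of -0.16. In CXCR3- innate cells 15 were below and 3 equal, with a median of -0.14. Ep300 read 8.98, 9.15 and 9.31, and its paralogue Crebbp differed from naive by -0.28 in both innate populations. Subunits of NuRD, Sin3, CoREST and NCoR corepressors had 15 of 18 below naive in both innate populations, with medians of -0.15. The counts of each list stand beside 34.2% (CXCR3+ innate) and 36.3% (CXCR3- innate) of all genes below naive. Among genes with a mean at or above the median of such means, the shares were 47.9% and 52.3%. Of the 20 Polycomb subunits 11 were below naive in CXCR3+ innate and 12 in CXCR3- innate cells. Suz12, the partner of Ezh2, read 7.66, 7.59 and 8.15, while Ezh2 itself was equal. Among the subunits of BAF and PBAF with other symbols, 9 of 13 were below naive in CXCR3+ innate and 8 in CXCR3- innate cells. The largest of these differences was that of Bcl11b, a T lineage transcription factor, at 9.40, 9.44 and 9.92.

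Subunits of ISWI, INO80, SRCAP and TIP60 remodelers had 16 of 24 below naive in CXCR3+ innate and 17 in CXCR3- innate cells, and Yy1 read 8.79, 8.54 and 9.11. Histone chaperones had 10 of 15 and 11 of 15 below. Here the CXCR3- innate array was the lowest for Npm1, at 9.38, 9.03 and 9.36, for Ncl, at 9.35, 9.11 and 9.63, and for Anp32b, at 8.09, 7.78 and 8.35. Methyltransferases and COMPASS subunits with other symbols had 12 of 21 below naive in each comparison, and Men1, the menin scaffold of Kmt2a complexes, read 7.45, 7.41 and 7.80. Bromodomain and PHD proteins had 10 and 11 of 13 below, with Trim33 at -0.41 and -0.42. JmjC proteins with other symbols had 3 of 6 below in each, with Phf2 at -0.40 in both. Readers and partners of DNA methylation had 2 and 3 of 8 below and a median of 0.00 in both. The same shares of all genes, 34.2% and 36.3%, and of genes with higher means, 47.9% and 52.3%, stand beside these counts.

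**Figure D5:**
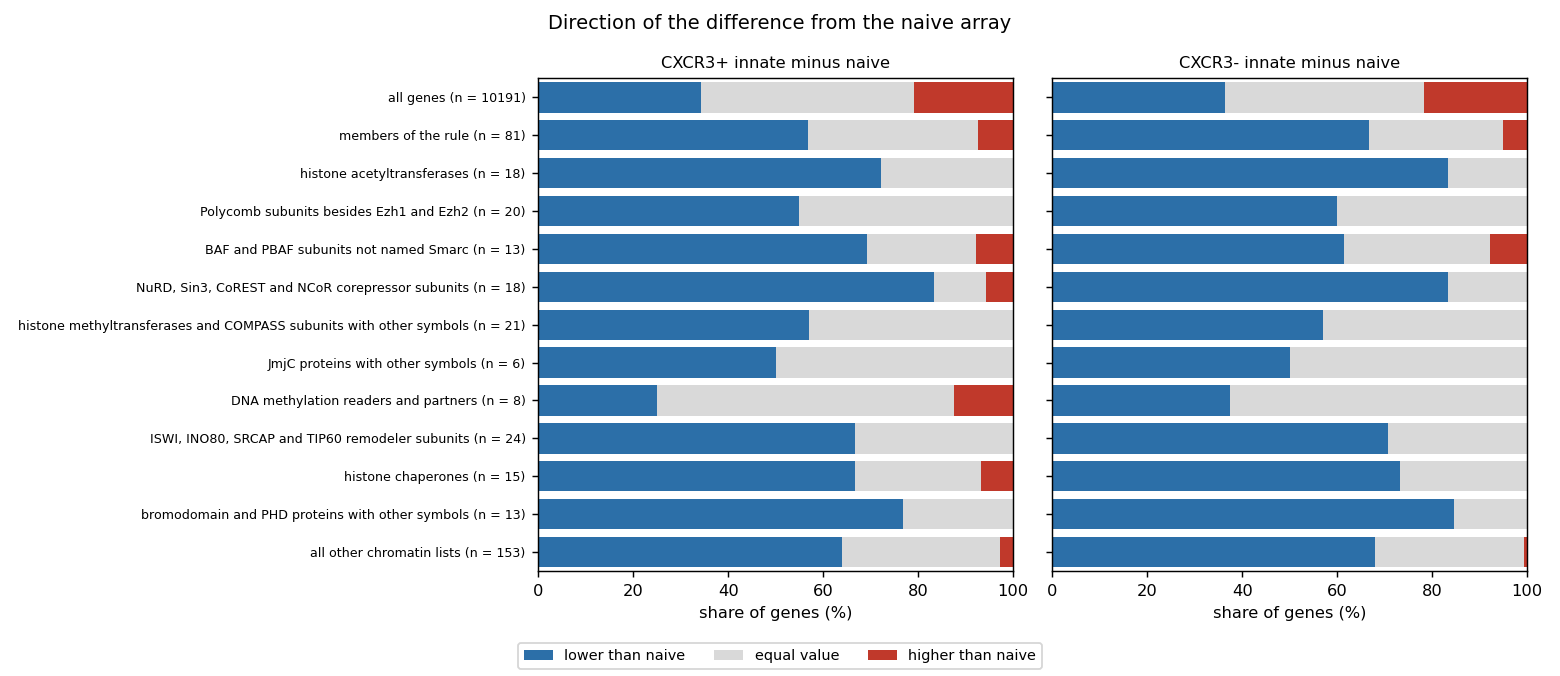
Share of genes in percent (x axis) whose value was lower than (blue), equal to (grey) or higher than (red) the naive array, for all genes, the members and 10 further chromatin lists with their union (y axis), for CXCR3+ innate on the left and CXCR3- innate on the right. The members have 56.8% and 66.7% below naive, against 34.2% and 36.3% of all genes.

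Genes outside chromatin regulation differed in the same comparisons. T cell and CD8 genes, of which 8 of 13 were measured, had median differences from naive of -0.17 in CXCR3+ and -0.30 in CXCR3- innate cells, with Cd3g at -0.38 and -0.93. The summed linear value of these genes was 10633, 9599 and 12624. Natural killer genes, 6 of 14 measured, summed to 4607, 3397 and 3814, with members on both sides of naive. The highest value of the list was 11.62, 11.06 and 11.23, so 1 gene makes up most of each sum. In both comparisons 4 of the 6 were above naive, with median differences of 0.17 in CXCR3+ and 0.04 in CXCR3- innate cells. The lowest naive value of the list was 6.88, under the 7.00002 that every probe set reached on some array. Such a cut favours a value above naive. Eomes differed from naive by 0.85 in CXCR3+ and 0.71 in CXCR3- innate cells, Nkg7 by 0.39 and -0.18, and Klrd1 by -0.14 and -0.50. B cell genes, 3 of 17 measured, summed to 582, 616 and 541, and myeloid and dendritic cell genes, 8 of 20 measured, to 1428, 1509 and 1443. The list of CD4 and regulatory T cell genes had 2 of 7 measured, summing to 308, 380 and 340. Cd79a, Ms4a1, Lyz2, Csf1r and Cd4 were not analysed here. Sums were 497, 433 and 421 for 2 of 10 gamma-delta T cell genes, and 265, 265 and 263 for 2 of 11 erythroid and platelet genes. They were 1031, 1108 and 1206 for 6 of 12 stromal and endothelial genes, where Pecam1 differed from naive by -0.87 and -0.45. The other genes of that list, Col1a1, Col1a2, Col3a1, Pdpn and Cxcl12, were equal to naive or above it by at most 0.06, so Pecam1 alone was lower. The erythroid and platelet genes read 7.03 to 7.07, and the B cell list had medians of 7.14, 7.21 and 7.14. These lie close to 7.00002, which every probe set reached on some array. Genes near that level still add to a sum, so these sums do not measure amounts of other cells. The part of any of these lists in the chromatin genes' values was not tested.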

How the data were processed

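The authors deposited log2 expression values of 12417 probe sets on 3 arrays. The submitters' processing notes name RMA and Affymetrix Expression Console, and no version or build is given in the sources used here. RMA as a method corrects background, gives arrays a common distribution and combines probes by median polish. Every probe set reached 7.00002 or more on some array, and lower ones were not analysed here. Symbols came from GEO's platform annotation, where 10576 probe sets had 1 symbol and were used, 1108 had several, among them 3 with a symbol of the rule, and 733 had none. Averaging log2 values within 273 genes that have more than 1 probe set gave 10191 genes. Of 93 RefSeq protein-coding genes whose symbol fits the rule, 81 had a value and 12, such as Dnmt3b and Sirt3, were not analysed here.

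The members, lists and size rule were chosen with earlier results of these data known. Differences of log2 values were counted by the size rule, which was checked on simulated data. With 1 array per group no test was run, and the number of arrays limits the precision. Genes named are members past 1.5-fold, those with the largest differences in each role, and list genes past 1.5-fold or with the largest differences. The remaining members were named with their values. Suz12, Npm1, Ncl, Ep300 and Crebbp were named after their values were seen where they fall outside this rule, and so were the promoters and motifs shown. Alternatives changed the scaling (quantile, cyclic loess, median centring, or a linear offset of 16), the dim-gene filter (none, or the 75th percentile), the members entering a median, the choice among probe sets, and the symbols (updated through RefSeq). Normalizations ran in limma 3.58.1 under R 4.3.3, and all else in Python 3.11.15 with pandas 2.3.3 and numpy 2.4.6.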

Additional observations from a re-analysis of the deposited data

Results flagged for a closer look

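For 3 members the innate populations lay on opposite sides of naive cells, and with 1 array each the difference was not tested. Kdm6b differed from naive by 0.31 in CXCR3+ innate and by -0.093 in CXCR3- innate cells. Chd7 differed by 0.053 and -0.16, and Smarca5 by -0.00063 and 0.055. The CXCR3- innate value of Kdm6b was above naive after quantile normalization, and the CXCR3+ innate value of Smarca5 is too close to 0 to carry a direction.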

How the results depend on the processing

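Of the alternative values of counts and medians, 119 stayed within 1.5 times the count, or within 0.05 of the median with its sign, and 13 did not. The 119 include every 2-fold count and every count of members 1.5-fold higher, which were 0 and stayed 0. Some settings had little to change, as 1 member has more than 1 probe set and the symbol update changed 0 symbols. The number 119 therefore says little about the nonzero counts, which follow. The count of members at least 1.5-fold lower in CXCR3+ innate minus naive went from 2 to 0 after quantile normalization and cyclic loess, and to 1 after centring on the median and with 16 added on the linear scale. In CXCR3- innate minus naive it went from 1 to 0 under those 4 settings and with the filter at the 75th percentile. In CXCR3+ innate minus CXCR3- innate it went from 0 to 1 after quantile normalization. No share of all genes is given here for these settings. The median of CXCR3+ innate minus naive was -0.10 over only the members above the filter, and that of CXCR3+ innate minus CXCR3- innate was -0.011 after quantile normalization and -0.013 after centring. Kmt2a and Hdac1 stayed at or below -0.52 in CXCR3+ innate minus naive under each setting. The cause of these shifts was not tested. The 2-fold counts were 0 under every setting run, and updating symbols changed 0 of them. No paired analysis was possible because each population has 1 array, and for the same reason no array could be left out.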
